A study of Mus musculus with 6 samples.

Results

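A set of 8 genes that the hypoxia-inducible factor HIF-1 is known to activate outside the glycolytic pathway were followed in control and RTF1-deficient mouse Th17 cells. They were chosen by name from the rows of the deposited count table. Bnip3 and Bnip3l encode mitophagy receptors, Higd1a an inner mitochondrial membrane protein, Vegfa a secreted angiogenic factor, Ero1l an oxidase of the endoplasmic reticulum, Ndrg1 a cytoplasmic stress-response protein, Ankrd37 a small ankyrin-repeat protein and Kdm3a a histone demethylase. All 8 were found among the 31017 genes of the table, and all 8 were among the 14268 genes with enough counts to be tested. The libraries were 3 controls, labelled wild type (WT), and 3 RTF1-deficient (KO) samples, each of total RNA from Th17 cells differentiated in culture. The age and strain of the mice, the way the Rtf1 gene was disrupted, the oxygen level and the composition of the culture are not given in the sources used here. The labels do not say whether replicates came from separate mice. Counts of sex-linked genes, given below, show that the libraries numbered 3 came from other mice than those numbered 1 and 2, whose own spread may be technical, and p-values measure only the spread between these samples.

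Th17 cells are helper T cells that secrete interleukin 17. HIF-1 pairs the oxygen-sensitive subunit encoded by Hif1a with the constant subunit encoded by Arnt. Prolyl hydroxylases of the Egln family mark the former for destruction when oxygen is present, through the ubiquitin ligase that contains the VHL protein. In activated T cells Hif1a is also induced without a lack of oxygen, by antigen receptor, mTOR and STAT3 signals, and HIF-1 is known to favour glycolysis and Th17 differentiation. The dimer binds short DNA elements with the core ACGTG or GCGTG. RTF1 works with the PAF1 complex on RNA polymerase II and promotes ubiquitination of histone H2B. The study asked what the loss of RTF1 does to gene expression in Th17 cells.

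In brief, 7 of the 8 genes were lower in KO. Vegfa, Bnip3 and Ero1l fell the most, to between 13.1% and 18.6% of the control level, Higd1a, Ankrd37, Bnip3l and Ndrg1 fell less, and Kdm3a was not called. The step between Ero1l and Higd1a rested on control replicate 3, without which both had a log2 fold change of −2.09. A gene was called when its adjusted p-value in edgeR's quasi-likelihood test was under 0.05, with p-values adjusted over all tested genes by the Benjamini-Hochberg method. With this rule 22.9% of all tested genes were called lower and 23.2% higher in KO, and 11.0% were called and at least 2-fold lower, as were 7 of the 8 members. With the replicate number as a block 26.4% of all tested genes were called lower, and without both libraries numbered 3 it was 21.7%; 7 of the 8 members were called lower in each of these fits. In 28.0% of tested genes every KO library lay below every control library, which was so for 7 of the 8 members. The median log2 fold change was −1.83 over the members and 0.013 over all tested genes. Levels are given as CPM, counts scaled to a common library total with TMM factors, and log2 fold changes compare KO with control. Both are relative to the other genes of a library and do not measure the amount of RNA per cell. The RNA came from bulk samples, in which fewer cells of a type and less RNA per cell cannot be told apart.

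**Figure D1:**
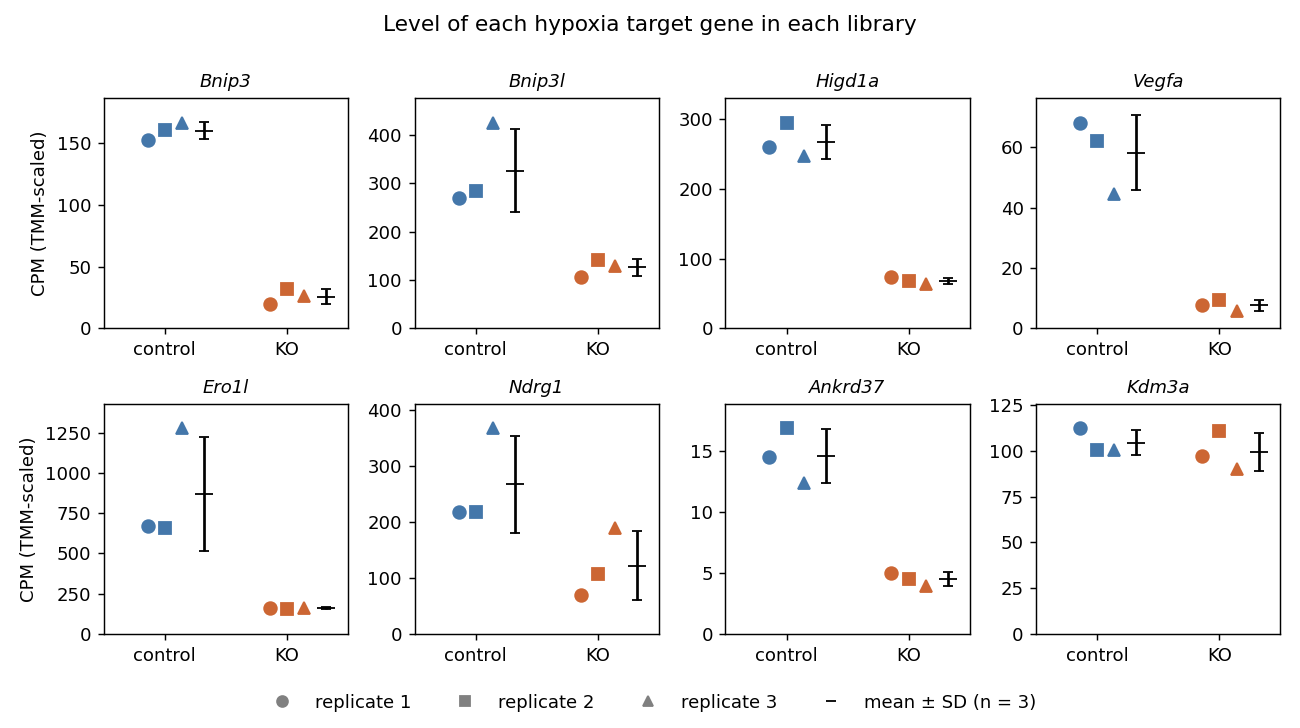
Level of each of the 8 genes (y axis, TMM-scaled CPM, starting at 0) in each library of control (blue) and KO (orange). Symbols mark replicates, and black bars give the mean ± SD of 3 libraries. Every KO library lies below every control library for all genes shown except Kdm3a, and Ndrg1 comes closest to overlap, with 190 CPM in KO replicate 3 and 217 CPM in the lowest control.

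Total counts per library ran from 16489813 to 51271226. The libraries numbered 3 stood apart in both groups. They held 5 (control) and 1 (KO) counts of Xist, which female cells transcribe, against 14668 to 28176 in the other libraries, and 11376 and 5147 counts summed over the Y-linked genes Ddx3y, Eif2s3y, Kdm5d and Uty, against 1 to 3 in each of the others. Without both of them the log2 fold changes were −2.92 for Vegfa, −2.61 for Bnip3, −2.04 for Ero1l, −1.98 for Higd1a, −1.72 for Ankrd37, −1.31 for Ndrg1, −1.16 for Bnip3l and −0.033 for Kdm3a, and the calls of all 8 genes were as with them. Rtf1 served as the check of the labels, and its level fell to 37.2% of control (log2 fold change −1.42, adjusted p = 0.000755), with each KO library below each control. The T cell markers Cd3e, Cd3d, Cd3g, Trac, Cd4, Cd5 and Thy1 summed to 1883 to 2233 CPM in control and 1862 to 2362 CPM in KO, but 3 of the 7 were called higher and 2 lower. Cd4, the co-receptor of helper T cells, was called lower (52.3% of control, adjusted p = 0.00132), as was Cd5 (65.8%, adjusted p = 0.00896), while Thy1 (196%, adjusted p = 0.00271), Cd3e (164%, adjusted p = 0.00242) and Cd3g (165%, adjusted p = 0.0221) were called higher. Markers of other cells were low. The erythroid list, relevant because Bnip3l clears mitochondria from maturing red cells, summed to 1.55 to 3.34 CPM in control and 1.23 to 2.19 CPM in KO over 7 genes, and Hba-a2 was at 0 in all libraries. The 6 myeloid genes summed to 2.64 to 5.75 CPM in control and 16.7 to 27.5 CPM in KO, mostly through Cd68, while the 7 CD8 and NK genes summed to 10.9 to 15.4 and 24.0 to 32.2 CPM, with Klrb1c and Ncr1 at 0. The 5 B cell genes summed to 1.24 to 3.09 and 1.74 to 2.62 CPM, and the 6 fibroblast and endothelial genes to 28.7 to 41.6 and 16.2 to 18.7 CPM, nearly all of it Pecam1, which T cells also express. The part of these shifts in the results was not tested. The 4 Th17 markers summed to 1295 to 1947 CPM in control and 479 to 1090 CPM in KO. Of these 4, 3 were called lower and 0 higher, beside 22.9% of all tested genes called lower. Their median log2 fold change was −1.32. The part of this fall in the results was not tested either.

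Bnip3 and Bnip3l are related proteins of the outer mitochondrial membrane that bind LC3-type proteins on the growing autophagosome and so deliver mitochondria to autophagy. The gene for Bnip3 lies on the minus strand of chromosome 7 (GRCm38, 138890836 to 138909519). The level of Bnip3 was 152, 161 and 166 CPM in the controls, in the order of their replicate numbers, against 19.7, 31.6 and 26.0 CPM in the KO libraries in that order. The groups were far apart, with the lowest control 4.83 times the highest KO library. Means were 160 ± 6.93 CPM in control and 25.7 ± 5.93 CPM in KO (SD, n = 3), so that 16.1% of the control level remained. The log2 fold change was −2.63 (SE 0.172, adjusted p = 5.76e-05). Of the 50-base stretches in its transcripts 16.6% also occur in annotated copies of the gene, which are absent by name from the deposited counts. A part of its reads may therefore be assigned differently by other counting rules. The same holds for the 22.25% of its exonic bases that an antisense gene overlaps, since the strand setting is not given. That gene held 0 counts in every library, which does not show how reads of the shared bases were assigned.

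Bnip3l (chromosome 14, 66985239 to 67008877, minus strand) encodes the other receptor of the pair. In the same order of libraries it stood at 270, 284 and 425 CPM in control and at 107, 142 and 130 CPM in KO. Control replicate 3 was the highest library, and the groups did not overlap. Means of 326 ± 85.8 CPM in control and 126 ± 17.8 CPM in KO (SD, n = 3) left 38.6% of the control level. Its log2 fold change was −1.37 (SE 0.195, adjusted p = 0.000948). A processed copy of the gene shares 20.8% of its 50-base stretches and is absent by name from the deposited counts.

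The log2 fold change of Bnip3 was further below 0 than that of Bnip3l, and the ratio of both genes within each library, which needs no scaling, was compared directly. The log2 ratio of Bnip3 to Bnip3l counts was −0.83, −0.82 and −1.36 in the controls by replicate number, and −2.44, −2.17 and −2.32 in the KO libraries. These ratios averaged −1.001 ± 0.307 for control libraries against −2.31 ± 0.135 for KO libraries (SD, n = 3), which differ by −1.31. The KO ratios all lay below the control ratios (two-sided exact permutation test over libraries, p = 0.1; 3 libraries against 3 allow no smaller value, so this test cannot pass 0.05).

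**Figure D2:**
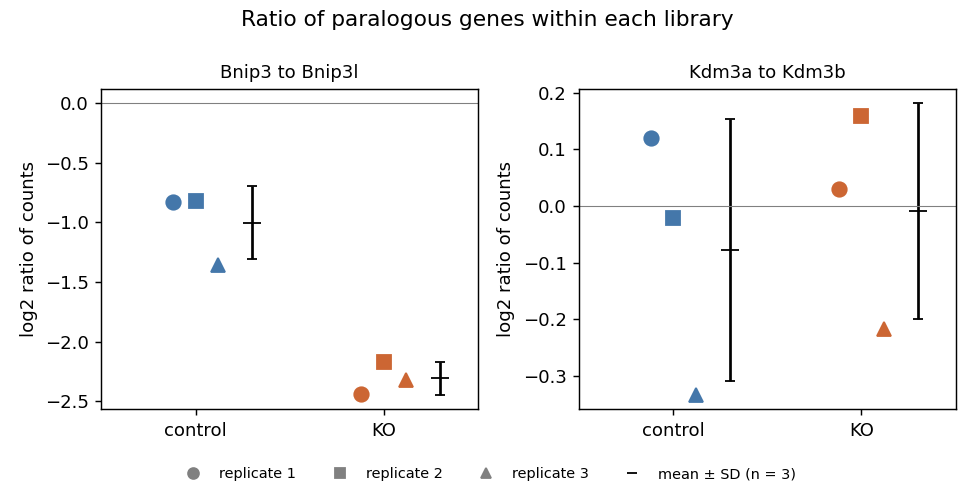
Log2 ratio of the counts of 2 related genes within each library (y axis), for Bnip3 to Bnip3l on the left and Kdm3a to Kdm3b on the right. Symbols mark replicates of control (blue) and KO (orange), black bars give the mean ± SD of 3 libraries, and the grey line marks equal counts. The Bnip3 to Bnip3l ratio separates the groups (means −1.001 and −2.31), and the Kdm3a to Kdm3b ratio does not (−0.078 and −0.0090).

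The other genes of mitophagy and autophagy did not follow these receptors. Of 17 listed genes 15 were tested, 8 were called higher and 0 lower (23.2% and 22.9% over all tested genes), with a median log2 fold change of 0.75. Over the 16 alternative settings the number called higher was 8 or 9 and the number called lower 0 or 1. It was 1 with the replicate block, without control replicate 3 and without both libraries numbered 3. Map1lc3b, which encodes an LC3 protein of the autophagosome membrane, rose (69.9 ± 10.5 CPM in control, 262 ± 40.4 CPM in KO, SD, n = 3; log2 fold change 1.91, SE 0.161, adjusted p = 0.000132). Ulk1, the kinase that starts autophagy, rose (35.5 ± 7.47 and 86.7 ± 12.9 CPM; 1.28, adjusted p = 0.000819). Gabarap, an LC3 relative, rose (107 ± 14.5 and 244 ± 35.0 CPM; 1.19, adjusted p = 0.000593). All 3 kept their call in each of the 6 fits that left out a library. Among the receptors and sensors that act beside Bnip3, Fundc1 (0.20, adjusted p = 0.288), Fkbp8 (0.25, adjusted p = 0.0822), Bcl2l13 (−0.028, adjusted p = 0.878) and Pink1 (−0.46, adjusted p = 0.175) were not called.

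Higd1a sits in the inner mitochondrial membrane, where it associates with cytochrome c oxidase (chromosome 9, 121848563 to 121858362, minus strand). By replicate number, controls held 260, 295 and 247 CPM of Higd1a, whereas the KO libraries held 73.1, 67.8 and 63.4 CPM. Both groups were tight, and the lowest control was 3.39 times the highest KO library. Its mean was 267 ± 24.6 CPM for control libraries and 68.1 ± 4.85 CPM for KO libraries (SD, n = 3), with a log2 fold change of −1.97 (SE 0.121, adjusted p = 4.83e-05). An antisense gene overlaps 22.5% of its exonic bases and held at most 12 counts in any library. With the strand setting of the counting not given, that low count does not show how reads of the shared bases were assigned. Annotated copies share 5.02% of its 50-base stretches and are absent by name from the deposited counts.

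Its relative Higd2a, another factor of respiratory complex assembly, was called higher, at 32.4 ± 2.96 CPM in control against 49.2 ± 4.05 CPM in KO (SD, n = 3; log2 fold change 0.60, adjusted p = 0.00532). That call did not survive leaving out control replicate 1 (adjusted p = 0.058). Higd1b and Higd1c held at most 10 and 0 counts and were not tested. Of 12 nuclear genes for cytochrome c oxidase subunits and an associated factor, 3 were called higher (Cox6b1, Cox6c and Cox8a) and 0 lower, with a median of 0.26. The number called higher is near the share over all tested genes, 23.2%. All 3 calls were lost when control replicate 1, control replicate 3 or KO replicate 2 was left out, leaving 0, 1 and 0 genes of the list called higher, whereas 6 were without control replicate 2 and with the replicate block, and 5 when only library size was used for scaling.

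Vegfa encodes vascular endothelial growth factor A, a secreted ligand for receptors on endothelial cells (chromosome 17, 46016993 to 46032369, minus strand). By replicate number it was measured at 68.0, 62.2 and 44.4 CPM in control, but at 7.86, 9.32 and 5.64 CPM in KO. Replicate 3 was the lowest in each group, and the lowest control was 4.76 times the highest KO library. KO replicate 3 rested on 111 counts, for which the exact Poisson 95% interval is 4.64 to 6.80 CPM, covering counting error only. The mean of 58.2 ± 12.3 CPM in control dropped to 7.61 ± 1.85 CPM (SD, n = 3), which is 13.1% of control and the largest fall among the 8 genes (log2 fold change −2.92, SE 0.231, adjusted p = 0.000106). Only 0.624% of all tested genes had a log2 fold change this low or lower.

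Of the other VEGF ligands, Vegfb fell (14.1 ± 0.437 CPM in control, 5.18 ± 1.23 CPM in KO, SD, n = 3; log2 fold change −1.45, SE 0.216, adjusted p = 0.00118). Vegfc (0.79, adjusted p = 0.371) and Pgf (0.16, adjusted p = 0.728) stayed under 2 CPM in every library and were not called. Nrp1, a co-receptor for VEGF that T cells also carry, rose (11.6 ± 3.28 and 22.3 ± 4.20 CPM; 0.95, adjusted p = 0.0119). Nrp2 was not called (0.74, adjusted p = 0.338), and the receptors Flt1, Kdr and Flt4 and the ligand Vegfd were too low to test. In this list of 9 genes, 5 were tested, 1 was called higher and 1 lower, near the shares over all tested genes (23.2% higher and 22.9% lower).

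Ero1l re-oxidises protein disulfide isomerase, so that disulfide bonds can form in newly made secretory proteins (chromosome 14, 45283087 to 45318771, minus strand). Its level by replicate number was 668, 658 and 1275 CPM in control, compared with 164, 158 and 163 CPM in KO. Control replicate 3 stood far above the other controls, while the KO libraries hardly differed. The coefficient of variation was 40.8% in control and 2.08% in KO. A control mean of 867 ± 354 CPM compared with a KO mean of 162 ± 3.36 CPM (SD, n = 3), or 18.6% of control (log2 fold change −2.42, SE 0.256, adjusted p = 0.000288). Without control replicate 3 the log2 fold change was −2.09, and without both libraries numbered 3 it was −2.04 (adjusted p = 7.87e-06).

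Of 12 listed partners of oxidative folding in the endoplasmic reticulum 11 were tested, 7 were called lower and 1 higher (2 with the replicate block), and the median log2 fold change was −0.83. The shares over all tested genes were 22.9% lower and 23.2% higher. P4hb, the disulfide isomerase that Ero1l serves, fell (879 ± 63.4 CPM in control, 449 ± 18.2 CPM in KO, SD, n = 3; log2 fold change −0.97, SE 0.119, adjusted p = 0.00053). Lower too were Pdia6 (340 ± 28.2 and 150 ± 16.0 CPM; −1.18, adjusted p = 0.000325) and Pdia5 (6.72 ± 1.04 and 1.59 ± 0.501 CPM; −2.06, adjusted p = 0.00119). The peroxidase gene Gpx7 stood at 1.57 ± 0.563 and 0.488 ± 0.240 CPM (−1.76, adjusted p = 0.0145), and lost its call when KO replicate 1 or KO replicate 2 was left out. Pdia3, an isomerase that acts on glycoproteins, was the gene called higher (0.53, adjusted p = 0.0172), and kept its call in 2 of the 6 fits that each left out a library. The second ER oxidase, Ero1lb, stood at 13.0 ± 3.57 and 8.28 ± 0.836 CPM, and its call (−0.66, adjusted p = 0.0379) was kept in 2 of those 6 fits as well.

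Ndrg1 (chromosome 15, 66929318 to 66969640, minus strand) had the largest SE of the 8 genes. Its product is known to be induced by hypoxia and other stresses. Antisense genes overlap 8.43% of its exonic bases, and the strand setting of the counting is not given. Controls stood at 217, 217 and 367 CPM by replicate number, and KO libraries at 69.1, 107 and 190 CPM. Replicate 3 was the highest library of both groups, and the lowest control exceeded the highest KO library by only 1.15 times. Mean levels were 267 ± 86.5 CPM for control and 122 ± 61.6 CPM for KO (SD, n = 3; log2 fold change −1.14, SE 0.351, adjusted p = 0.0269). This call was lost without KO replicate 1 (−0.86, adjusted p = 0.0556) and without KO replicate 2 (−1.04, adjusted p = 0.095). Within libraries of equal replicate number the log2 ratio of KO to control was −1.65, −1.03 and −0.95 for numbers 1, 2 and 3. Without both libraries numbered 3 the log2 fold change was −1.31 (SE 0.188, adjusted p = 0.000384). Of its relatives, Ndrg2 fell (63.2 ± 8.82 CPM in control, 16.6 ± 4.62 CPM in KO; −1.93, SE 0.218, adjusted p = 0.000384), while Ndrg3 (−0.11, adjusted p = 0.562) and Ndrg4 (0.31, adjusted p = 0.322) were not called.

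Ankrd37 encodes a small protein of ankyrin repeats, with few counts in all libraries (chromosome 8, 45996902 to 46005707, minus strand). It was found at 14.5, 16.9 and 12.4 CPM in control and at 5.05, 4.51 and 3.97 CPM in KO, again by replicate number. The groups did not overlap, and the lowest count was 78, in KO replicate 3, with an exact Poisson 95% interval of 3.13 to 4.95 CPM. The mean of 14.6 ± 2.24 CPM in control dropped to 4.51 ± 0.542 CPM in KO (SD, n = 3; log2 fold change −1.69, SE 0.200, adjusted p = 0.000452). This gene is uncertain, since 26.4% of its exonic bases overlap genes on the other strand and the strand setting of the counting is not given in the sources used here. The main overlapping gene, Ufsp2, named only for this overlap, held up to 3502 counts, at most 752% of the Ankrd37 count of the same library. It was called lower too (−1.07, adjusted p = 0.000808), and reads of the shared bases cannot be told apart without strand.

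Kdm3a removes methyl groups from H3K9, a mark of silent chromatin, and belongs to the JmjC demethylases, which need oxygen themselves (chromosome 6, 71588972 to 71632990, minus strand). In the controls, by replicate number, it stood at 112, 100.5 and 100.3 CPM, and in the KO libraries at 97.1, 111 and 90.3 CPM. The groups overlapped, with the second highest value of all in a KO library. Means were 104 ± 6.82 and 99.4 ± 10.5 CPM (SD, n = 3), and the log2 fold change of −0.068 had an SE of 0.117 (adjusted p = 0.658). The 95% interval of the log2 fold change was −0.33 to 0.20, which corresponds to 0.794 to 1.15 times the control level. For the 7 other genes the upper end of this interval ran from −2.40 for Vegfa to −0.34 for Ndrg1. With only library size as scaling, the sign for Kdm3a was positive (0.019).

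Its close relative Kdm3b stood at 111 ± 13.7 and 99.8 ± 4.97 CPM (SD, n = 3; log2 fold change −0.15, adjusted p = 0.336). The log2 ratio of Kdm3a to Kdm3b counts was 0.12, −0.021 and −0.33 by replicate number in control, against 0.031, 0.16 and −0.22 in KO. The groups overlapped, and the means differed by 0.069 (two-sided exact permutation test over libraries, p = 0.6). The third member, Jmjd1c, was called higher (212 ± 19.2 and 265 ± 9.83 CPM; 0.32, adjusted p = 0.0466) but kept that call in 0 of the 6 fits that each left out a library. Over 16 listed JmjC genes, 15 were tested, 1 was called higher (3 with the replicate block) and 2 lower (Kdm2b and Kdm4b), and the median log2 fold change was 0.0018. Among all tested genes 23.2% were called higher and 22.9% lower. Kdm4b, itself a known HIF-1 target, fell (50.7 ± 9.37 and 25.9 ± 1.76 CPM; −0.97, SE 0.154, adjusted p = 0.00154), and the call of Kdm2b (−0.41, adjusted p = 0.0256) was kept in 2 of those 6 fits.

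**Figure D3:**
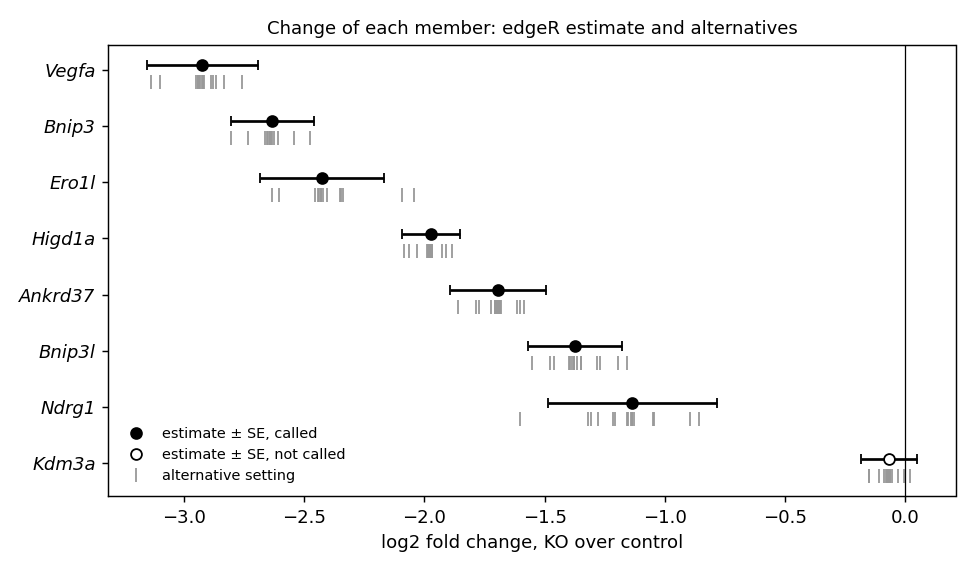
Log2 fold change of each of the 8 genes, KO over control (x axis), with genes on the y axis ordered by size. Points give the edgeR estimate ± SE (filled when called, open when not) and grey ticks below give the value under each of 16 alternative settings. All ticks of the 7 called genes lie below 0, from −3.14 for Vegfa to −0.86 for Ndrg1, while those of Kdm3a reach from −0.15 to 0.019.

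Levels of different genes can be compared only per length, and for this CPM was divided by the kilobases of annotated exon. In control the order was Ero1l (164 ± 66.9 CPM per kilobase), Higd1a (87.9 ± 8.10), Bnip3l (84.6 ± 22.2), Bnip3 (70.5 ± 3.06), Ndrg1 (40.5 ± 13.1), Vegfa (13.6 ± 2.87), Kdm3a (12.7 ± 0.829) and Ankrd37 (9.49 ± 1.46). Higd1a and Bnip3l, Bnip3l and Bnip3, and Vegfa and Kdm3a were neighbours whose difference was within the SD of one of them. In KO the order changed to Bnip3l (32.7 ± 4.61 CPM per kilobase), Ero1l (30.6 ± 0.636), Higd1a (22.4 ± 1.60), Ndrg1 (18.5 ± 9.34), Kdm3a (12.1 ± 1.27), Bnip3 (11.4 ± 2.62), Ankrd37 (2.93 ± 0.352) and Vegfa (1.78 ± 0.432). Kdm3a, within the SD of Vegfa in control, stood above Vegfa in KO, but most neighbours in this order were not resolved: Bnip3l and Ero1l, Higd1a and Ndrg1, Ndrg1 and Kdm3a, and Kdm3a and Bnip3 differed by less than the SD of one of them. Summed over the 8 genes, the level by replicate number was 1763, 1794 and 2638 CPM in control, against 543, 630 and 671 CPM in KO.

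For 6 of the 8 genes RefSeq (GRCm38.p6) gave the bases before a transcription start, as 9 windows of 250 bases; Bnip3l and Ndrg1 had no entry. Build mm10, which the submitters' processing notes name, is the same assembly. These windows were searched on both strands for ACGTG and GCGTG, and a match can share bases with another match on the opposite strand. The Bnip3 window held 2 matches to ACGTG and 3 to GCGTG. Its upstream bases outside annotated exons (chr7:138909520-138909756, minus strand) are shown with each match in capitals. CACGTG there is 1 palindrome that matches ACGTG on both strands and accounts for both matches to it. Whether the number of matches relates to the size of a fall was not tested.
Bnip3: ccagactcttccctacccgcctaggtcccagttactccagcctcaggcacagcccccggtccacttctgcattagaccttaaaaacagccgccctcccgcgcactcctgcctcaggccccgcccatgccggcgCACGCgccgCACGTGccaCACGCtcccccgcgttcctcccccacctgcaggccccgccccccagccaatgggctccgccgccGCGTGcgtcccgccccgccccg

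For the other members with a window, 25 bases around 1 chosen match per gene are shown. Kdm3a was not called, and the others fell. Whether the type of motif relates to a fall was not tested. Capitals mark the match on which a piece is centred, ACGTG or GCGTG, or its reverse complement where the match is on the other strand; the pieces of Vegfa and Higd1a each hold 1 further GCGTG, left in lower case. The pieces are chr8:45999842-45999866 for Ankrd37, chr14:45318621-45318645 for Ero1l, chr17:46025360-46025384 for Vegfa, chr9:121857852-121857876 for Higd1a and chr6:71632930-71632954 for Kdm3a, all on the minus strand. By the gene positions given above, each of these pieces lies inside its annotated gene and is upstream only of the RefSeq start used. Unlike the Bnip3 stretch, they were not limited to bases outside annotated exons.
Ankrd37: gtgtttgggtACGTGaggccgcagc
Ero1l: cgcgccgctgCACGTccgcagggga
Vegfa: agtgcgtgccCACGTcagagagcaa
Higd1a: ggtctagcctGCGTGcgtggcgttc
Kdm3a: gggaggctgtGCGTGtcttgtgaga

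Ankrd37 held ACGTG at 241 and, in the piece shown, at 6 bases before the start, and the ACGTG of Ero1l began 63 bases and the palindrome of Bnip3 108 bases before it. In parts not shown, GCGTG lay 155 and 152 bases before the start for Ankrd37 and 128 and 88 bases for Ero1l. For Vegfa both matches lay in the window of a downstream, internal start, and the window of its first start held neither motif. The internal window lies within the annotated gene, and its bases may be exonic or coding. Higd1a and Kdm3a held GCGTG alone, beginning 70 and 66 bases before the start for Higd1a and 27 bases for Kdm3a, and the windows of the 2 other Kdm3a starts held neither motif. In all, 4 of the 9 windows held ACGTG, the internal Vegfa window among them, and 6 held either motif. Over the 13223 windows of tested genes 21.4% held ACGTG and 54.4% held either motif, so a GCGTG match of the kind seen in Higd1a and Kdm3a is common. A match describes the sequence and is not a bound site, and the known HIF-1 elements of several of these genes, Vegfa among them, lie farther away than these windows reach.

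The other genes of the HIF-1 pathway are given for context. Hif1a itself stood at 791, 830 and 1229 CPM in control by replicate number, against 437, 465 and 464 CPM in KO, and fell with a log2 fold change of −1.06 (SE 0.179, adjusted p = 0.00197). Control replicate 3, the highest for Hif1a, was also the highest for Bnip3, Bnip3l, Ero1l and Ndrg1, but the lowest control for Higd1a, Vegfa, Ankrd37 and Kdm3a. Of 14 listed HIF factors and regulators 13 were tested, 5 were called lower and 2 higher (4 with the replicate block). For all tested genes the shares were 22.9% lower and 23.2% higher. The prolyl hydroxylases Egln1 (−1.90, adjusted p = 4.5e-05) and Egln3 (−1.02, adjusted p = 0.000688), which are also HIF-1 targets, fell, and so did Hif3a (−2.23, adjusted p = 0.00245) and the ligase subunit Cul2 (−0.67, adjusted p = 0.00162). Epas1, which encodes the HIF-2 subunit, rose from a low level (2.32 ± 1.88 CPM in control, 11.03 ± 4.71 CPM in KO; 2.23, adjusted p = 0.0129), and without control replicate 3 its log2 fold change was 3.17. Hif1an was called higher (0.36, adjusted p = 0.0264) but kept that call in 1 of the 6 fits that each left out a library. Arnt (0.22, adjusted p = 0.114), Vhl (0.19, adjusted p = 0.303), Egln2 (0.27, adjusted p = 0.101), Elob (0.30, adjusted p = 0.0862), Eloc (0.30, adjusted p = 0.0551) and Rbx1 (−0.19, adjusted p = 0.205) were not called. When only library size was used for scaling, Arnt, Egln2, Elob and Eloc were called higher.

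A further 25 HIF-1 targets outside glycolysis were all tested, with 16 called lower, 4 higher and a median log2 fold change of −0.70. Over all tested genes 22.9% were called lower and 23.2% higher. Vldlr, a lipoprotein receptor, fell (53.5 ± 16.0 CPM in control, 1.39 ± 0.513 CPM in KO; log2 fold change −5.29, adjusted p = 4.75e-05). P4ha2, a collagen prolyl hydroxylase, also fell (48.2 ± 6.41 and 1.71 ± 0.837 CPM; −4.88, adjusted p = 6.79e-05), as did Stc2, a secreted glycoprotein (25.9 ± 7.21 and 1.45 ± 0.644 CPM; −4.21, adjusted p = 0.000142). These 3 and Zfp395 (−3.04, adjusted p = 0.000224) had log2 fold changes below those of all 8 members. Called higher were Plod1 (1.64, adjusted p = 0.00049), a lysyl hydroxylase, Cited2 (1.13, adjusted p = 0.00215), a protein that competes with HIF-1 for its co-activator, Narf (0.96, adjusted p = 0.000904) and Bhlhe41. Bhlhe41 stood at 0.426 ± 0.483 and 1.96 ± 0.398 CPM (2.15, adjusted p = 0.0404), kept its call in 1 of the 6 fits and reached 3.96 without control replicate 3. Of 20 glycolytic HIF-1 targets 17 were called lower and 0 higher, with a median of −1.31, and Slc2a3, the glucose transporter, fell most (−3.76, adjusted p = 0.000355, and −3.12 without control replicate 3). The members, the further targets and the glycolytic targets were chosen as HIF-1 targets with earlier results of these data known, so their shared direction is not independent evidence.

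**Figure D4:**
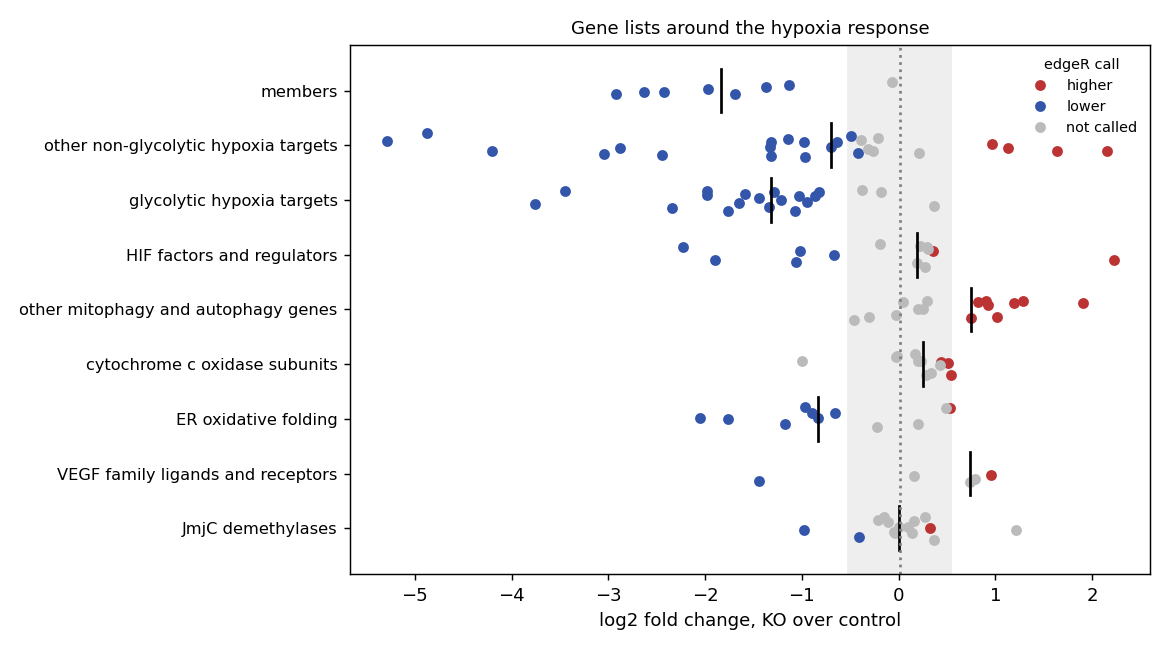
Log2 fold change, KO over control (x axis), of each tested gene in 9 gene lists (y axis), coloured by edgeR call (red higher, blue lower, grey not called). Black bars mark list medians, the dotted line the median of all tested genes and the grey band its lower to upper quartile (−0.52 to 0.55). The members have a median of −1.83, and the list of other mitophagy and autophagy genes has one of 0.75, with Pink1, Phb2 and Bcl2l13 to the left of the dotted line.

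The genes whose pattern over the 6 libraries was most like each member were found by the root mean square difference of log2 CPM, after centring each gene on its control mean, among tested genes with at least 20 CPM. Bnip3 lay nearest to Gys1, a glycogen synthase (difference 0.211), and Arrb1 (0.315). Higd1a lay nearest to the glycolytic enzyme gene Tpi1 (0.0634) and to Egln1 (0.0864). Vegfa lay nearest to the adenylate kinase gene Ak4 (0.224) and the aminotransferase gene Gpt2 (0.255), and Ero1l to Pgm2 (0.212), an enzyme of sugar phosphates, and Aff3 (0.216). Ankrd37 lay nearest to Mif (0.0636), a cytokine gene, and Mthfd2 (0.0755), a mitochondrial folate enzyme. Bnip3l lay nearest to Arhgap15 (0.0855) and Slc37a4 (0.152), Ndrg1 to Upp1 (0.237) and Tmtc2 (0.243), and Kdm3a to Mterf3 (0.0460) and Supt20 (0.0602). The nearest neighbours of Bnip3, Vegfa, Ero1l and Ndrg1 were thus over 0.2 away, a description over 6 libraries in which the 2 groups set most of the pattern.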

How the data were processed

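Total RNA from 3 control and 3 KO Th17 samples was sequenced. The authors deposited raw whole-number counts per gene symbol, and the submitters' processing notes name STAR, featureCounts, DESeq2 and build mm10, without versions or roles; annotation and strand setting are not given in the sources used here. Columns were matched to samples by description, and 0 columns lacked a sample. Counts were compared with edgeR 4.0.16 (R 4.3.3): filterByExpr, TMM factors, quasi-likelihood test of KO against control without covariates, Benjamini-Hochberg adjustment over all 14268 tested genes. The SE is the absolute log2 fold change over the square root of F. The procedure was also run on simulated counts, in which few genes changed, equally in both directions, with the same dispersion for all genes. Far more genes were called in these data, so that run does not check scaling or error control here. With total counts of 16489813 to 51271226 per library, the spread between libraries sets the precision more than counting error.

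The members, lists and tests were chosen with earlier results of these data known. Genes were named by rule: the members, their relatives, Rtf1, the HIF list, up to 3 called genes with the largest change per direction and list, and 2 nearest patterns per member (log2 CPM, prior count 2). Values of Fundc1, Fkbp8, Bcl2l13, Pink1, Pgf, Nrp2, P4hb, Kdm4b, Zfp395, Ufsp2 and the called T cell markers were added for their role and after their values were seen. Ratios were taken as log2 with 0.5 added to each count. Gene positions, exon lengths and shared 50-base stretches come from GENCODE M21 (GRCm38), promoter windows from RefSeq.

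Labels give both groups replicate numbers 1 to 3. Deviations from group means correlated at 0.27, 0.13 and 0.38 between libraries of equal number, all over 0.1. Equal numbers were therefore taken as pairs in the replicate block, although control replicate 2 correlated more with KO replicate 1 (0.204). The libraries numbered 3 also share their sex, unlike the others, so sex and pairing cannot be told apart in these correlations. The labels state no pairing, and the main fit and the fits that left out a library did not use it. Alternatives were other scalings, DESeq2 1.42.0, limma-voom (limma 3.58.1), other filters, the replicate block, leaving out each library and leaving out both libraries numbered 3.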

Additional observations from a re-analysis of the deposited data

How the results depend on the processing

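Of 128 values for the 8 members under 16 alternatives, 125 kept direction and side of the threshold, and 7 members stayed called lower throughout except in the fits named here. Ndrg1 lost its call when KO replicate 1 (−0.86) or KO replicate 2 (−1.04) was left out, and with 1 library left out it ranged from −1.60 to −0.86. Kdm3a turned to 0.019 with library size as the only scaling; with 1 library left out it ranged from −0.15 to −0.0040. Leaving out 1 library gave 2170 to 3700 genes called lower in all and 2290 to 3350 called higher, the fewest without KO replicate 2. The Kdm3a to Kdm3b ratio ranged from −0.058 to 0.17 when 1 library was left out, turning negative when control replicate 3 (−0.058) or KO replicate 2 (−0.015) was left out. The cause was not tested. With the replicate block the pairing changed no member's call: 7 stayed lower, with log2 fold changes of −2.65 for Bnip3, −2.94 for Vegfa and −1.21 for Ndrg1 (adjusted p = 0.000152), and the Bnip3 to Bnip3l difference stayed at −1.31 (exact sign-flip permutation test over 3 pairs, p = 0.25, the smallest it allows). Among 60 other named genes, 887 of 960 values kept direction and side of the threshold. Mterf3, near 0 throughout, turned to 0.077 with library size only, 0.020 by limma-voom and 0.0053 without both libraries numbered 3, and with 1 library left out it ranged from −0.11 to 0.052. Supt20 turned to 0.017 with library size only, Vegfc to −0.12 without KO replicate 1 (−0.12 to 1.16 over the 6 libraries left out in turn) and Ndrg3 to 0.045 without both libraries numbered 3. With 1 library left out, the number called higher ran from 1 to 3 for HIF factors and regulators, from 0 to 2 for JmjC genes and from 0 to 1 for the oxidative folding list. Vegfc and Pgf rested on at most 29 and 59 counts per library, and the VEGF receptors Flt1, Kdr and Flt4 had too few counts to be tested.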
